A study of Mus musculus with 3 samples.

Results

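Cpa3 and Mcpt8 are 2 of the 14721 genes in the deposited count table, both known as markers of the basophil and mast cell lineage. They were chosen by their measured levels, which had been seen to differ between these libraries, so the levels are given as a description, with no test. The transcripts were counted in single LSK cells of mouse bone marrow, which are sorted by absence of lineage markers and presence of Sca-1 and Kit and include stem cells and early progenitors of all blood lineages. There were 3 libraries, 1 for each genotype. The wild-type library (WT) was Spop(+/+) Myd88(+/+), the KO library was Spop(D/D) Myd88(+/+) and the DKO library was Spop(D/D) Myd88(-/-). No agent was given to any group, and the labels give neither the age or sex of the mice, nor the number of mice per library, nor the Cre line behind the D allele. Spop encodes the substrate receptor of a cullin ubiquitin ligase, and Myd88 encodes an adaptor protein through which Toll-like receptors and receptors of the interleukin-1 family signal.

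Cpa3 encodes carboxypeptidase A3, a zinc protease that is packed with heparin or other serglycin-bound glycans in mast cell granules and trims peptides and venoms. Mcpt8 encodes mast cell protease 8, a serine protease of the granzyme family that in mice is a hallmark of basophils more than of mast cells. Basophils and mast cells arise from progenitors that carry GATA and C/EBP transcription factors, respond to interleukin-3 and stem cell factor, and later display the high-affinity receptor for immunoglobulin E. Cpa3 transcripts are also known in earlier progenitors of the marrow, including those of the megakaryocyte and erythroid branch.

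The promoters of the 2 genes are printed because their levels moved apart across cell types. The bases come from RefSeq on GRCm38.p6 and read 5′ to 3′ on the minus strand, on which both genes lie. Capitals mark matches to GATAA, the core of a GATA factor site, and to CANNTG, the E-box of basic helix-loop-helix factors, both searched on both strands. The Cpa3 stretch is chr3:20242210-20242431 and ends 29 bases before the annotated start. The Mcpt8 stretch is chr14:56085313-56085342 and ends 116 bases before the RefSeq start used here, at 56085197. It still lies within the annotated extent of Mcpt8, which reaches 56085499, so it is not upstream of every annotated start as the Cpa3 stretch is.
Cpa3 promoter: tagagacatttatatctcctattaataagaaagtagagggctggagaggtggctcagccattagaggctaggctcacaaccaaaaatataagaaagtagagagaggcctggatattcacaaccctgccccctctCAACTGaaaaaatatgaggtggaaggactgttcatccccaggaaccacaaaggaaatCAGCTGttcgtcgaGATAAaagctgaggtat
Mcpt8 promoter: acagtcaccacaCAGATGtggcaagaactc
Within 300 bases around the start, the Cpa3 promoter held GATAA at position -45 and E-boxes at -116 and -59. The Mcpt8 promoter held E-boxes at -133, -60 and -20 and no GATAA in this window. The sites at -60 and -20 lie inside the GENCODE span of Mcpt8, which reaches 56085273. Its whole window, with the site at -133, lies inside the annotated extent that reaches 56085499. The windows of the 2 genes thus cover unlike regions, and no difference in GATAA is read from them. GATAA was present in 25.4% and CANNTG in 72.3% of the 32851 promoters of the same length in that set, so these matches are common, and no binding was measured.

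Cpa3 (ENSMUSG00000001865) spans chr3:20215620-20242181 and Mcpt8 (ENSMUSG00000022157) spans chr14:56082166-56085273 on GRCm38. The libraries are of the Chromium 3' type, which reads the end of each transcript. In the last 300 bases of each transcript, 0 of 276 runs of 25 bases occur in another gene, so reads of Mcpt8 are not expected to be shared with its neighbouring protease genes.

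The WT, KO and DKO libraries held 8147, 4920 and 8184 cells with medians of 9245, 17319 and 12404.5 UMIs (unique molecular identifiers, counted once per captured transcript) per cell. Shares of cells with a gene are therefore given after thinning each cell to 5500 UMIs, which left out 683 WT, 0 KO and 178 DKO cells. All 95% intervals cover counting error only, since each genotype is 1 library. Myd88 stood at 13.7, 25.8 and 4.47 CPM (UMIs of the gene per 1000000 UMIs of the library) in WT, KO and DKO, and Spop at 70.7, 63.1 and 77.1. The deleted parts are not given, so these tags at the transcript end do not check the alleles. Xist was at 0.187, 0 and 1537 CPM and the Y-linked Ddx3y at 43.9, 32.2 and 0, so sex and the DKO genotype cannot be told apart. Any 2 libraries shared 46 to 83 cell barcodes, which is 0.935% to 1.098% of the smaller library.

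The level of Cpa3 was 14.1 CPM in WT (interval 13.3 to 14.9), against 19.0 in KO (18.2 to 19.9) and 66.6 for DKO cells (65.1 to 68.1), from 1211, 1929 and 7318 UMIs. DKO stood apart from the other libraries, and the 3 counting intervals did not overlap. That of Mcpt8 was 17.7 CPM in WT (16.9 to 18.7), 51.4 for KO cells (49.99 to 52.8) and 48.0 for DKO cells (46.7 to 49.3). Here WT stood apart, and KO and DKO lay close together. For Mcpt8 the step was between WT and KO, a 2.89-fold difference (2.73 to 3.07), and for Cpa3 it was between KO and DKO, a 3.50-fold difference (3.33 to 3.68). The KO/WT ratio of Cpa3 was 1.35 (1.252 to 1.448) and the DKO/KO ratio of Mcpt8 was 0.935 (0.899 to 0.971). Against WT, DKO was 4.71-fold higher in Cpa3 (4.43 to 5.01) and 2.71-fold higher in Mcpt8 (2.55 to 2.87). As a result, each Mcpt8 UMI went with 0.796 Cpa3 UMIs in WT (0.738 to 0.859), with 0.370 in KO (0.351 to 0.390) and with 1.39 among DKO cells (1.34 to 1.44).

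At a ratio of 1.5 or more and a mean of at least 20 CPM, Mcpt8 was among the 8.85% of genes that were higher in KO than in WT, while Cpa3, with a mean of 16.6 CPM, was below that level. Cpa3 was among the 13.4% of genes higher in DKO than in KO, and both genes were among the 2.43% higher in DKO than in WT. The first of these shares depends on the scaling: 455 genes (8.85%) lay above and 630 (12.3%) below WT in the KO library by library totals, and 892 and 414 with TMM scaling, where the median log2 ratio of all genes moved from 0.02 to 0.17. Between DKO and KO the split was 693 above (13.4%) and 311 below (6.02%), and 372 and 676 with TMM, where that median moved from 0.08 to -0.12. In DKO against WT 1.87% of genes were lower by the same fold.

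Thinned to equal depth, 5.09% of WT cells (4.60 to 5.61), 8.07% of KO cells (7.32 to 8.87) and 18.8% of DKO cells (18.0 to 19.7) had a Cpa3 UMI. Without thinning the shares were 7.29%, 14.5% and 28.6%. A Mcpt8 UMI was found in 5.44% (4.94 to 5.98), 12.2% (11.3 to 13.1) and 10.95% (10.3 to 11.7) of thinned cells, and in 8.90%, 30.6% and 19.5% without thinning. The order of the libraries was the same for levels and for thinned shares, and the KO and DKO intervals of Mcpt8 overlapped.

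**Figure D1:**
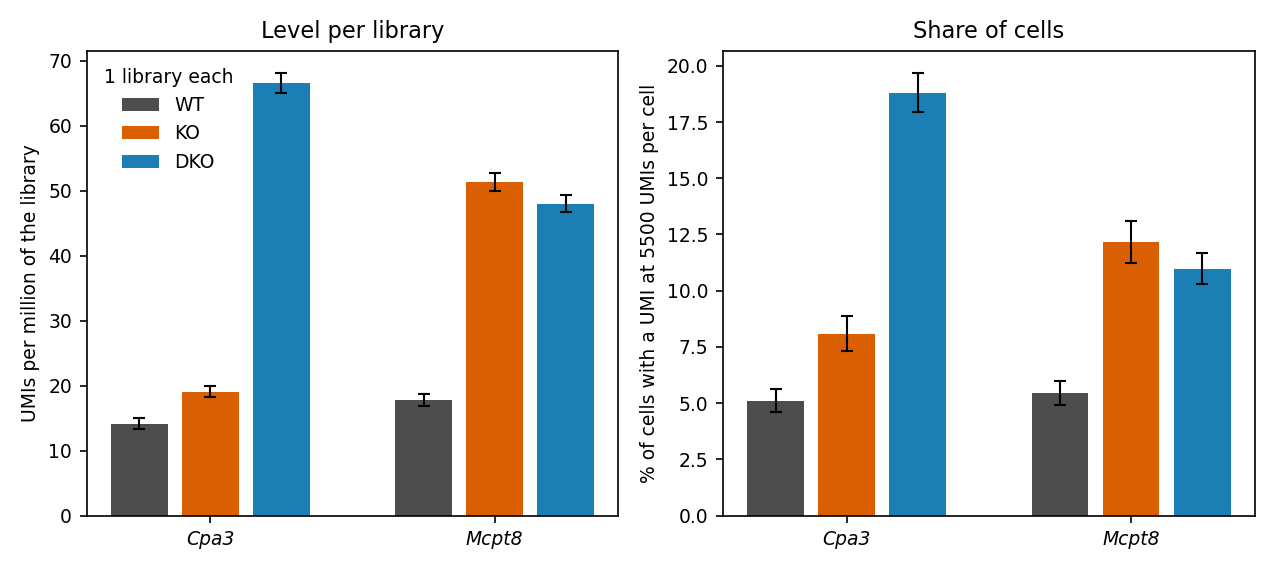
Levels of Cpa3 and Mcpt8 per library in CPM (left) and the percent of cells with a UMI after thinning to 5500 UMIs per cell (right), in WT (grey), KO (orange) and DKO (blue), 1 library each, with 95% counting intervals. Cpa3 rises to 66.6 CPM in DKO alone, while Mcpt8 is at 51.4 and 48.0 CPM in KO and DKO against 17.7 in WT.

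A large part of both transcripts came from few cells, apart from Cpa3 in DKO. Most cells with either gene held 1 or 2 UMIs, but the top 1% of cells held 43.4% of the Cpa3 UMIs in WT, 38.6% in KO and 21.9% in DKO. For Mcpt8 the top 1% held 40.1%, 36.3% and 39.5%. For Myd88, which had at most 6 UMIs in any cell, it held 14.1%, 8.17% and 21.0%. The Cpa3 share in DKO was thus near that of a sparse gene without rich cells. Cells with 30 or more UMIs were 1, 2 and 11 for Cpa3 and 1, 18 and 9 for Mcpt8 in WT, KO and DKO. These few cells carried 12.8%, 28.4% and 22.4% of all Mcpt8 UMIs, but only 2.89%, 5.55% and 5.99% of all Cpa3 UMIs. The counts in this paragraph are not thinned, so a fixed cut also depends on depth per cell, which was highest in KO. In DKO, Cpa3 was spread over more cells, with 695 cells at 3 to 9 UMIs holding 43.7% of it. Cells with 10 or more Cpa3 UMIs numbered 10, 37 and 131 and held 13.5%, 33.1% and 29.2% of it in WT, KO and DKO.

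**Figure D2:**
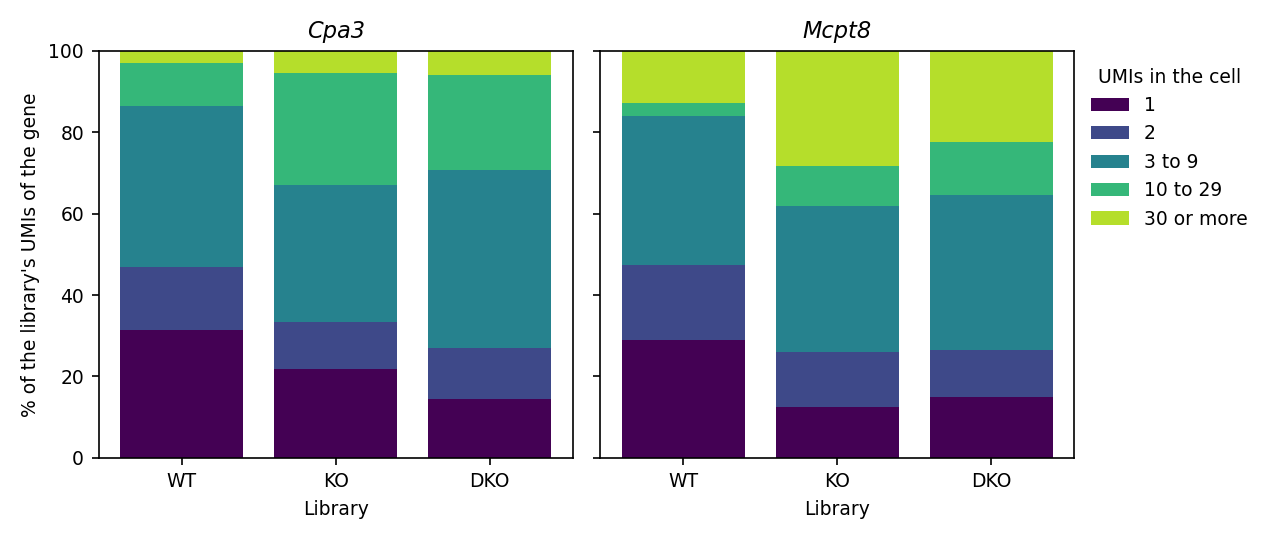
Share of each library's Cpa3 UMIs (left) and Mcpt8 UMIs (right) that came from cells with 1, 2, 3 to 9, 10 to 29 or 30 or more UMIs of that gene. The topmost band, cells with 30 or more UMIs, is 12.8% to 28.4% of the bar for Mcpt8 and 2.89% to 5.99% for Cpa3.

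In each library the same cell held the most UMIs of both genes. The WT cell had 35 Cpa3 and 194 Mcpt8 UMIs among 11926, the KO cell 71 and 218 among 19691, and the DKO cell 60 and 507 among 17214. The WT cell alone carried 12.8% of the Mcpt8 UMIs of its library and the DKO cell 9.61%. These cells also carried Prss34, another basophil protease gene, at 576, 50 and 765 UMIs, with Fcer1a, the ligand-binding chain of the immunoglobulin E receptor, at 32, 14 and 74. They held 576 of the 585 Prss34 UMIs of WT, 50 of 130 in KO and 765 of 877 in DKO. Without them, Prss34 was at 0.105, 0.789 and 1.02 CPM in place of 6.83, 1.28 and 7.98, so its level in WT and DKO was set by 1 cell each.

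Cells were then grouped into 18 clusters without using Cpa3 or Mcpt8 to define them, and clusters are named by marker lists or, where no list led, by their leading genes. B-lineage-like cells of WT had the lowest Cpa3, at 0.447 CPM (0.122 to 1.14), and had Mcpt8 at 2.23 (1.36 to 3.45). These cells were taken to lack both genes, so the values serve as a reference for low levels in WT. They are not read as a level of free RNA, since WT megakaryocyte-progenitor-like cells had less Mcpt8, at 0.335 CPM (0.0406 to 1.21). At the median depth of B-lineage-like cells, 12872.5 UMIs, 0.613% of them had a Cpa3 UMI and 1.99% a Mcpt8 UMI. KO and DKO had too few B-lineage-like cells for such a value.

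Cpa3 was highest in the cluster led by Prss34 and Csrp3, at 153 CPM in KO (140 to 166) and 168 in DKO (155 to 182). In DKO the clusters led by Klf2 and Dusp1 (102 CPM, 93.8 to 110), by Ung and Nefh (92.5, 87.5 to 97.8) and by Irf8 and F13a1 (91.8, 85.1 to 98.8) came next, and their intervals overlapped. Megakaryocyte-progenitor-like cells followed at 72.4 (68.4 to 76.5), then the clusters led by Hist1h2bc and Ptms (64.7), Nr4a1 and Rgs1 (62.3), Nusap1 and Fam64a (53.3) and Txnip and Stxbp4 (47.1). The lowest values in DKO were in the clusters led by Cmah and Arpp21 (12.8, 9.83 to 16.4), whose leading genes include the lymphoid Dntt and Il7r, and by Zfp36 and Nfkbiz (11.3, 3.67 to 26.4), and in stem-cell-like cells (5.36, 3.27 to 8.27).

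In WT the 45 cells of the cluster led by Prss34 and Csrp3 had 104 CPM of Cpa3. Among classes with at least 50 WT cells the order began with the clusters led by Nr4a1 and Rgs1 (40.1 CPM, 30.4 to 52.0) and by Ung and Nefh (30.1, 26.0 to 34.6) and with megakaryocyte-progenitor-like cells (25.5, 21.6 to 29.8), each overlapping its neighbour. Stem-cell-like cells were again low at 2.18 (1.13 to 3.81). In KO, Cpa3 was at 22.4 in erythroid-progenitor-like cells (20.1 to 24.9), 16.3 in megakaryocyte-progenitor-like cells (13.3 to 19.6), 16.2 in the cluster led by Vldlr and Ifitm1 (14.7 to 17.9) and 8.95 in neutrophil-progenitor-like cells (8.11 to 9.85). Cpa3 was thus found in megakaryocyte, erythroid and neutrophil progenitor-like cells and in unnamed clusters, above the 0.447 CPM of WT B-lineage-like cells. For erythroid and neutrophil progenitor-like cells this sets KO values against a WT value, since KO had no such reference.

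Mcpt8 followed another order. Among classes with at least 50 WT cells it was highest in the cluster led by Irf8 and F13a1 (52.7 CPM, 46.0 to 60.1), which carries monocyte and neutrophil progenitor genes, and in the cluster led by the mitotic genes Nusap1 and Fam64a (37.1, 33.7 to 40.7). In DKO the cluster led by Irf8 and F13a1 was at 185 (176 to 195) and that led by Nusap1 and Fam64a at 66.7 (63.1 to 70.5). The cluster led by Prss34 and Csrp3 was at 80.2 in KO and 191 in DKO, and at 323 in its 45 WT cells, through few rich cells. In KO, neutrophil-progenitor-like cells were at 76.8 (74.3 to 79.4) and the cluster led by Vldlr and Ifitm1 at 34.7 (32.4 to 37.1). The neutrophil-progenitor-like cells held 68.8% of all Mcpt8 UMIs of KO, but only 21.7% of its Cpa3 UMIs, in 28.9% of its cells.

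Megakaryocyte-progenitor-like cells, which had Cpa3, had almost no Mcpt8, at 0.335 CPM in WT (0.0406 to 1.21, 2 UMIs), 2.24 in KO (1.25 to 3.69) and 2.31 in DKO (1.65 to 3.14). Erythroid-progenitor-like cells of KO were at 2.76 (1.99 to 3.73) and stem-cell-like cells at 1.45 in WT and 1.07 in DKO. All of these lie near or below the 2.23 CPM of WT B-lineage-like cells and are not read as expression, although that value was measured in WT only. Over all libraries, 26.6 Cpa3 UMIs were counted per Mcpt8 UMI in megakaryocyte-progenitor-like and 8.14 in erythroid-progenitor-like cells, against 0.120 in neutrophil-progenitor-like and 0.015 in the 71 mature-neutrophil-like cells. When all basophil and mast cell markers were kept out of the clustering, the megakaryocyte-progenitor-like class took in other cells and Mcpt8 in it was 31.2, 34.7 and 38.1 CPM in WT, KO and DKO, so its near absence there holds for the classes as first drawn.

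**Figure D3:**
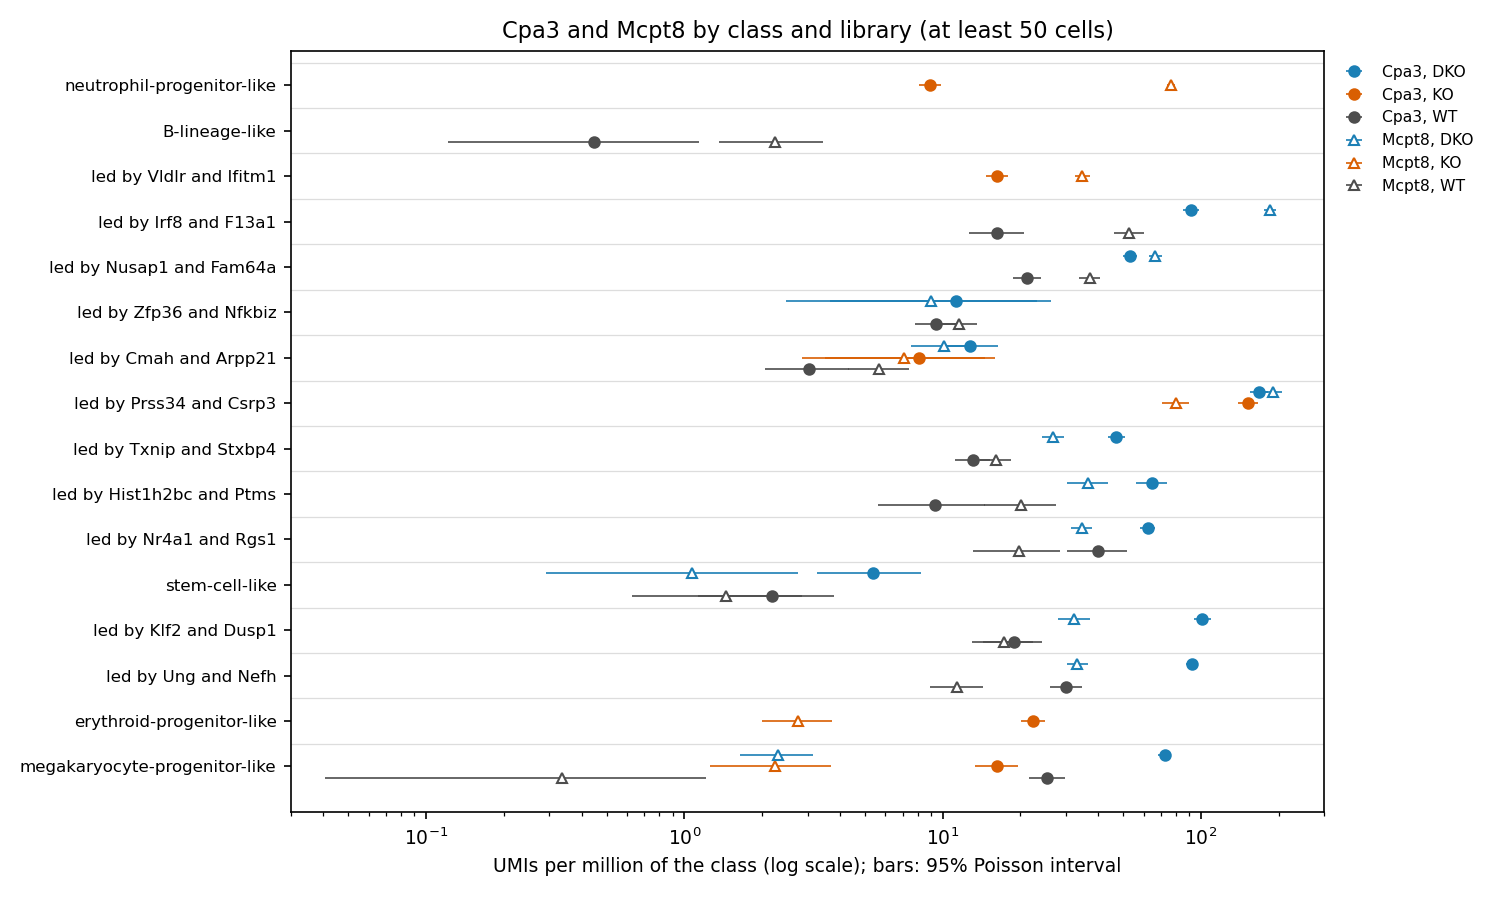
Cpa3 (filled circles) and Mcpt8 (open triangles) in CPM for each class and library with at least 50 cells, on a log axis with 95% Poisson intervals, ordered from the lowest Mcpt8 per Cpa3 (bottom) to the highest (top). In megakaryocyte-progenitor-like cells Cpa3 is at 16.3 to 72.4 and Mcpt8 at 0.335 to 2.31, while in neutrophil-progenitor-like cells of KO Mcpt8 is at 76.8 and Cpa3 at 8.95.

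The DKO rise of Cpa3 was seen in most classes and was not confined to 1 kind of cell. In 11 classes with at least 50 cells in both WT and DKO, Cpa3 was higher in DKO by 1.5-fold or more, with an interval above 1, in 10. The ratios ran from 1.20 to 6.91 with a median of 3.08, and the exception was the cluster led by Zfp36 and Nfkbiz, where DKO had 53 cells and 5 UMIs. The largest was in the cluster led by Hist1h2bc and Ptms, at 9.36 CPM in WT and 64.7 in DKO (6.91-fold, 4.32 to 11.7), where 5.81% of genes were higher by at least 1.5-fold. The cluster led by Irf8 and F13a1 was at 16.3 and 91.8 (5.63-fold, 4.39 to 7.31, beside 3.22% of genes), and megakaryocyte-progenitor-like cells at 25.5 and 72.4 (2.84-fold, 2.40 to 3.39, beside 2.89% of genes). Ratios were 5.39 in the cluster led by Klf2 and Dusp1 (5.33% of genes), 4.20 in that led by Cmah and Arpp21 (2.16%), 3.59 in that led by Txnip and Stxbp4 (2.61%) and 3.08 in that led by Ung and Nefh (2.2%). The smaller ones were 2.51 for Nusap1 and Fam64a (2.13%), 2.46 for stem-cell-like cells (4.66%), 1.55 for Nr4a1 and Rgs1 (6.79%) and 1.20 for Zfp36 and Nfkbiz (9.1%). Cpa3 was thus higher in DKO in megakaryocyte-progenitor-like cells and in 8 unnamed clusters. The stem-cell-like ratio compares 20 with 12 UMIs, and since B-lineage-like cells gave a reference in WT only, these low levels are not read as expression.

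Mcpt8 was higher in DKO than in WT in 9 of the same 11 classes, with ratios from 0.738 to 6.88 and a median of 1.80. The exceptions were the cluster led by Zfp36 and Nfkbiz and stem-cell-like cells, both with 4 UMIs in DKO. Its highest ratio, in megakaryocyte-progenitor-like cells, compares 40 with 2 UMIs (interval 1.79 to 58.8) at levels not read as expression. Where Mcpt8 was abundant, in the cluster led by Irf8 and F13a1, DKO was 3.52-fold higher (3.05 to 4.07).

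Few classes allowed a comparison with KO, because clusters separated by library. The cluster led by Vldlr and Ifitm1 drew 97.9% of its cells from KO, neutrophil-progenitor-like cells 95.3% and erythroid-progenitor-like cells 99.5%, and such clusters may be the library and not a cell type. In megakaryocyte-progenitor-like cells, Cpa3 in KO was at 0.639 times WT (0.495 to 0.822), and DKO was 4.45-fold above KO (3.66 to 5.47). By comparison 2.65% of genes in this class were lower in KO than in WT by 1.5-fold, and 6.61% were higher in DKO than in KO. In the cluster led by Cmah and Arpp21 the KO/WT ratio of Cpa3 was 2.66 from 8 and 30 UMIs, with 2.07% of genes higher by 1.5-fold. The KO/WT direction in megakaryocyte-progenitor-like cells depends on how the class is drawn: with all basophil and mast cell markers kept out of the clustering, Cpa3 in it was 34.2, 62.6 and 90.0 CPM in WT, KO and DKO, which turns KO against WT and narrows DKO against KO. Without the cluster led by Prss34 and Csrp3, the log2 KO/WT ratio of Cpa3 was 0.09, against 0.43 with it.

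The mix of cells also differed between the libraries. Summed markers of neutrophil progenitors (12 of 12 in the table, none at 0) were at 1283, 7973 and 2328 CPM in WT, KO and DKO, and Mcpt8 was highest with them in KO. Erythroid markers (14 of 14) were at 244, 1411 and 352, and megakaryocyte markers (14 of 15) at 205, 349 and 421, whose order is that of Cpa3. Their part in the library levels was not tested. With the erythroid, neutrophil and B lineage classes left out, the log2 KO/WT ratio was 0.98 for Cpa3 and 0.94 for Mcpt8, against 0.43 and 1.53. In the same setting the log2 DKO/KO ratio was 1.13 for Cpa3, against 1.81, and turned to 0.34 for Mcpt8, against -0.10.

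The cluster led by Prss34 and Csrp3 held 45 WT, 226 KO and 229 DKO cells and mixed erythroid with basophil and mast cell genes. In it 22.2%, 45.6% and 47.6% of the cells had Cpa3, but only 6.67%, 11.5% and 5.68% had Mcpt8. Mcpt8 there was carried by few cells: without the cell of the cluster that was richest in it in each library (194, 75 and 507 UMIs) it fell from 323 to 6.65 CPM in WT, from 80.2 to 58.6 in KO and from 191 to 48.8 in DKO, which turns the order of KO and DKO (their ratio had been 2.38, with 6.39% of genes higher in DKO by 1.5-fold). Cpa3 was at 104, 153 and 168 CPM, and at 48.2, 143 and 152 without the cells of the cluster richest in Cpa3. The richest cells of the whole WT and DKO libraries lay in this cluster. That of KO, with 71 Cpa3 and 218 Mcpt8 UMIs, lay in the cluster led by Txnip and Stxbp4.

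Splitting this cluster gave 4 parts, of which the largest was named basophil-mast-like by Prss34, Ms4a2, Fcer1a and Hdc, against 2 erythroid markers. Of its Prss34 UMIs, 1 cell held 576 of 576 in WT and 1 cell 765 of 856 in DKO. Without counting Prss34 the lead of 2 markers would not be met. The largest part had Ms4a2 at 161 and Fcer1a at 139 CPM, beside the erythroid genes Car1 at 596 and Klf1 at 104. Its 18 WT, 150 KO and 128 DKO cells had 327, 235 and 332 CPM of Cpa3 and 1079, 135 and 435 of Mcpt8, and without its own richest cell for each gene and library 146, 219 and 297 of Cpa3 and 23.3, 98.5 and 111 of Mcpt8. These cells held 24.2% of the Cpa3 UMIs of KO but 5.16% of its Mcpt8 UMIs, and 7.08% and 12.8% in DKO. A smaller basophil-mast-like part of 45 cells had Cpa3 at 179 and Mcpt8 at 5.59 CPM. The erythroid-progenitor-like part of 131 cells was at 14.9 and 1.53. Mcpt8 was thus low in the smaller basophil-mast-like part, where Cpa3 was high.

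Cpa3 and Mcpt8 were seldom found in the same cell. At equal depth both were detected in 39 WT cells (0.523%, 0.372 to 0.714), 55 KO cells (1.12%, 0.843 to 1.45) and 171 DKO cells (2.14%, 1.83 to 2.48). In WT, 9.61% of cells with Mcpt8 also had Cpa3 (6.92 to 12.9), against 4.83% of the other cells (4.34 to 5.36). In KO the shares were 9.20% (7.004 to 11.8) and 7.91% (7.13 to 8.76), and in DKO 19.5% (16.9 to 22.3) and 18.7% (17.8 to 19.7), with overlapping intervals in both. Without thinning, the DKO shares were 32.7% (30.4 to 35.03) and 27.7% (26.6 to 28.7), and these intervals did not overlap. The unthinned KO shares turned to 13.2% (11.5 to 15.03) and 14.997% (13.8 to 16.2), with overlapping intervals. In WT the direction was kept, at 14.2% and 6.62%. The overlap in DKO and the direction in KO thus depend on thinning. At equal depth, cells with at least 3 UMIs of each gene numbered 1, 6 and 8 in WT, KO and DKO. Over single cells, Pearson's r of the log values was 0.07 in WT, 0.07 in KO and 0.07 in DKO, and 0.05, 0.05 and 0.06 without the richest cell, and such weak values in sparse counts are no finding.

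Cells with both genes were most common in the cluster led by Irf8 and F13a1 in DKO, at 40 of 418 cells (9.57%, 6.92 to 12.8), which held 23.4% of the DKO cells with both. In KO they were most frequent in the cluster led by Prss34 and Csrp3, at 13 of 226 (5.75%, 3.10 to 9.64), while neutrophil-progenitor-like cells had 19 of 1424 (1.33%, 0.805 to 2.08). In megakaryocyte-progenitor-like cells there were 0 of 448 in KO, which allows a share of up to 0.670% (3 cells of the total), and 5 of 1160 in DKO (0.431%). Only 1.12% and 1.38% of these KO and DKO cells had Mcpt8, so few with both could be found. In the cluster led by Irf8 and F13a1 in DKO, 15.1% of cells had Cpa3 and 36.8% had Mcpt8.

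Cells with Cpa3 alone and cells with Mcpt8 alone were compared in the lineage genes, and those named next differed in the same direction in all 3 libraries, while others, such as Ms4a3, Itgb7 and Ly6a, did not. Gata2, a transcription factor of stem, mast and megakaryocyte cells, was at 130, 131 and 156 CPM in cells with Cpa3 alone and at 29.7, 22.1 and 45.6 in cells with Mcpt8 alone (WT, KO and DKO). Gata1, which drives the erythroid, megakaryocyte and mast cell programmes, was at 21.9, 71.8 and 32.1 against 0.495, 2.34 and 1.55. Itga2b, the platelet integrin CD41, was at 49.1, 113 and 110 against 11.4, 16.7 and 33.2. The ranges of the sets did not overlap for any of these genes.

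In the other direction, Ctsg, which encodes the neutrophil granule protease cathepsin G, was at 211, 525 and 299 CPM in cells with Cpa3 alone and 667, 2439 and 1310 with Mcpt8 alone. Irf8, a factor of monocyte and dendritic cell progenitors, was at 35.2, 20.7 and 11.4 against 136, 71.7 and 69.3. Cebpa, a factor of granulocyte progenitors, was at 42.1, 51.0 and 38.8 against 60.9, 88.4 and 74.4. The lymphoid genes Dntt (52.8, 4.78 and 16.6 against 247, 35.5 and 111) and Flt3 (46.9, 12.2 and 53.8 against 126, 38.8 and 134) lay the same way, although cells with neither gene had more Dntt, at 518, 87.7 and 151.

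The alpha and beta chains of the immunoglobulin E receptor were higher in cells with Cpa3 alone. Fcer1a was at 1.07, 56.4 and 18.4 CPM there, and at 0, 2.01 and 0.515 in cells with Mcpt8 alone, which in WT compares 2 UMIs with 0. Ms4a2, the beta chain, was at 7.998, 55.3 and 15.1 against 0.495, 1.005 and 0.773. Over all cells the third chain, Fcer1g, was no closer to Cpa3 (mean r 0.12) than to Mcpt8 (0.14). Cells with neither gene had Ms4a2 at 0.406, 4.84 and 1.16, so cells with Mcpt8 alone were no richer in this receptor than cells with neither gene, by level, in KO and DKO.

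**Figure D4:**
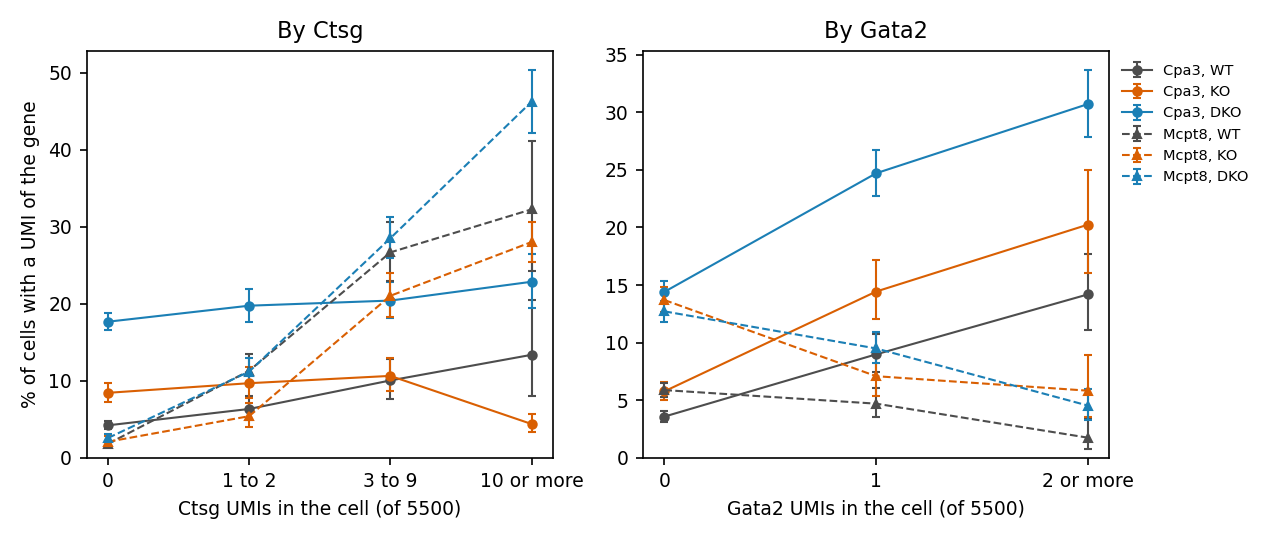
Percent of cells with a UMI of Cpa3 (solid lines, circles) or Mcpt8 (dashed lines, triangles) at each number of Ctsg UMIs (left) and Gata2 UMIs (right), with all cells thinned to 5500 UMIs and 95% Clopper-Pearson intervals. The Mcpt8 lines climb with Ctsg to 28.0% to 46.3%, and the Cpa3 lines climb with Gata2 to 14.2% to 30.7%.

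Graded by Ctsg, the share of cells with Mcpt8 at 0, 1 to 2, 3 to 9 and 10 or more Ctsg UMIs was 1.82%, 11.3%, 26.7% and 32.3% in WT. It was 2.09%, 5.41%, 21.1% and 28.0% in KO and 2.57%, 11.2%, 28.5% and 46.3% in DKO. At 1 to 2 Ctsg UMIs the KO share was below that of WT (4.02 to 7.11 against 9.42 to 13.4). At 3 to 9 UMIs the intervals of KO and WT overlapped (18.3 to 24.0 and 23.0 to 30.6). They also overlapped at 10 or more (25.5 to 30.7 and 24.3 to 41.2), where WT had 127 cells. At 0 the KO and WT shares were 2.09% and 1.82%. Cpa3 over the same steps was found in 4.22%, 6.35%, 10.1% and 13.4% of WT cells, in 8.45%, 9.70%, 10.6% and 4.39% of KO cells and in 17.7%, 19.8%, 20.4% and 22.9% of DKO cells. Cpa3 was higher in DKO than in WT at every step of Ctsg, the step at 0 included.

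Graded by Gata2 at 0, 1 and 2 or more UMIs, Cpa3 was found in 3.58%, 8.98% and 14.2% of WT cells, 5.77%, 14.4% and 20.2% of KO cells and 14.4%, 24.7% and 30.7% of DKO cells. DKO cells with no Gata2 UMI thus had Cpa3 about as often as WT cells with 2 or more. Mcpt8 was found in 5.88%, 4.70% and 1.75% of WT cells, 13.7%, 7.09% and 5.83% of KO cells and 12.7%, 9.49% and 4.53% of DKO cells. Its level did not follow that order, at 15.2, 10.99 and 43.3 CPM in WT, since the few cells rich in Mcpt8 also had Gata2, so no order is read from these shares. With Itga2b at 0, 1 and 2 or more UMIs, Cpa3 was found in 4.44%, 10.8% and 15.7% of WT cells, 6.16%, 15.6% and 15.3% of KO cells and 14.7%, 29.4% and 35.5% of DKO cells.

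The genes most like Cpa3 over cells, by Pearson's r of log values averaged over the 3 libraries, were Hdc (mean r 0.25), Srgn (0.25), Apoe (0.24), Nkg7 (0.23), Fam46a (0.23), Slc7a8 (0.22), Fgf3 (0.22), Itga2b (0.22), Gata2 (0.21) and Csrp3 (0.21). Hdc encodes histidine decarboxylase, which makes histamine, and Srgn encodes serglycin, the proteoglycan core of the granules. For Hdc r was 0.07 in WT, 0.38 in KO and 0.31 in DKO. Ms4a2, too low in mean level to be ranked, had r of 0.19, 0.44 and 0.25.

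The genes most like Mcpt8 were Ctsg (0.50), Mpo (0.43), Ccl9 (0.33), Prtn3 (0.31), Ap3s1 (0.30), Anxa3 (0.27), Plac8 (0.27), Cebpa (0.27), Calr (0.26) and Ms4a3 (0.24). Mpo and Prtn3 encode myeloperoxidase and proteinase 3 of neutrophil granules, and Ms4a3 marks granulocyte and monocyte progenitors. For Ctsg r was 0.44, 0.48 and 0.58 in WT, KO and DKO. The lists of 10 shared 0 genes, and Gata2 and Itga2b had mean r of -0.11 and -0.09 with Mcpt8. All points of a library share its depth and its mix of cells, and these r describe likeness only.

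**Figure D5:**
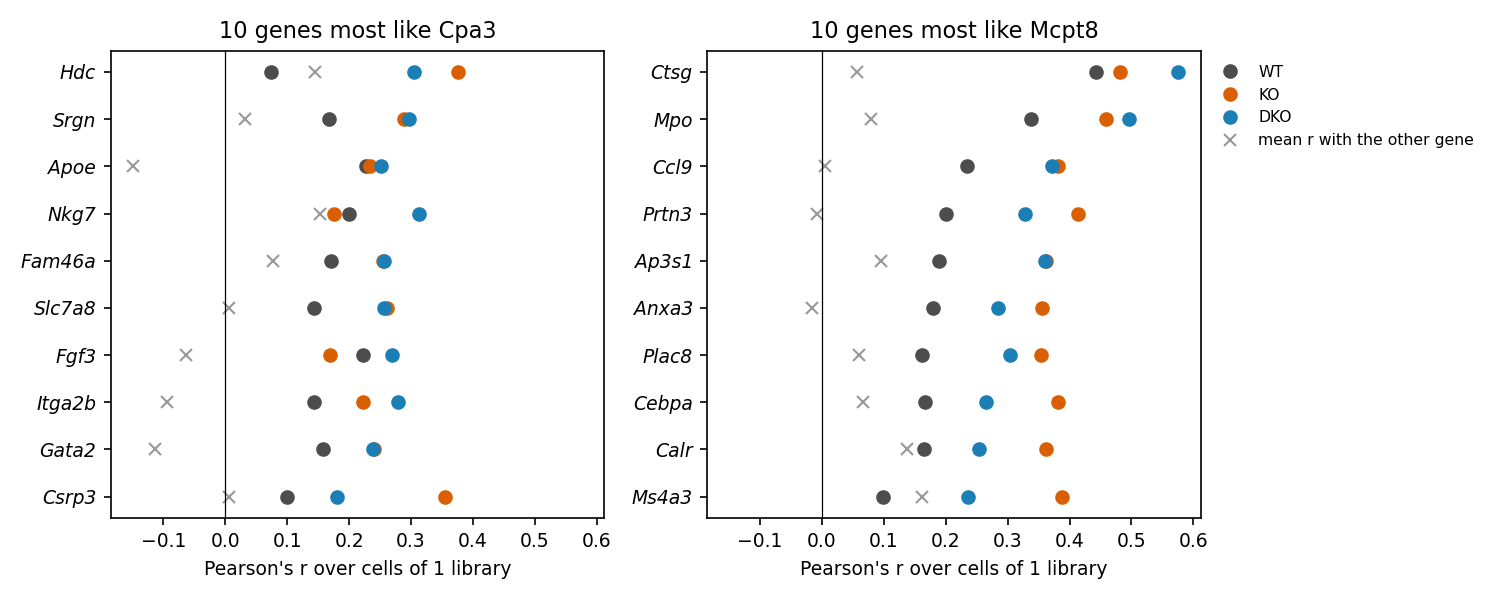
Pearson's r over cells of each library (WT grey, KO orange, DKO blue) for the 10 genes most like Cpa3 (left) and the 10 most like Mcpt8 (right), with the mean r to the other of the pair as a cross. Ctsg reaches 0.44 to 0.58 with Mcpt8, no gene on the left passes 0.38 with Cpa3, and most crosses lie near 0.

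Cells with both genes were also set against cells with neither. Apart from Prss34, which outside the richest cells was found in 0, 3 and 4 cells with both, the genes highest in cells with both, by the smallest ratio over libraries and with at least 50 CPM in cells with both in every library, were Cebpa, Ctsg, Ccl9, Fam46a, Cst7, Mpo, Ms4a3, Fcer1g and Fut8. Cebpa was at 135, 136 and 97.8 CPM in cells with both and 27.7, 41.3 and 34.9 in cells with neither. Its ratios were 4.89, 3.29 and 2.81, and 4.32, 3.26 and 2.67 without the richest cell of each library. Ctsg had ratios of 8.44, 2.12 and 5.91, and Fcer1g, the signalling chain of the immunoglobulin E receptor, 2.05, 2.18 and 1.77. Below that level in at least 1 library, Ms4a2 was at 28.0, 112 and 25.5 CPM and Fcer1a at 74.6, 86.0 and 48.9 in cells with both, and in WT both were at 0 in the 38 such cells other than the richest. In WT, leaving out the richest cell moved the ratio of Ms4a3 from 4.66 to 2.21 and that of Cst7 from 2.19 to 1.46. These ratios do not set cells with both against cells with 1 gene. With Mcpt8 alone, Cebpa was lower than with both, at 60.9, 88.4 and 74.4 CPM. Ctsg was at 895, 1964 and 1633 with both and 667, 2439 and 1310 with Mcpt8 alone. Mpo was at 517, 1107 and 1074 against 553, 1594 and 720, and Ms4a3 at 60.6, 655 and 228 against 32.7, 907 and 105. In KO, Ctsg, Mpo and Ms4a3 were thus higher with Mcpt8 alone.

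The genes lowest in cells with both included Dntt, Wfdc17, S100a6, Tsc22d1, Bcl11a, Gimap1, Ly6a, Egfl7 and Mef2c. Dntt, the terminal transferase of early lymphoid cells, was at 42.0, 13.2 and 6.38 CPM in cells with both against 518, 87.7 and 151 in cells with neither. Ly6a, which encodes the Sca-1 antigen of the sort, was at 46.6, 72.7 and 30.8 against 106, 120 and 123. Cells with only 1 of the genes were also below cells with neither, at 46.4, 65.9 and 70.3 with Cpa3 alone and 45.1, 75.0 and 52.0 with Mcpt8 alone.

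Around Mcpt8 on chromosome 14 lies a cluster of mast cell protease, granzyme and cathepsin genes, of which 5 of 14 besides Mcpt8 were in the table, and the others were not analysed here. Ctsg, whose start lies 17.3 kb from that of Mcpt8, was at 186, 1686 and 540 CPM in WT, KO and DKO. Ctsg was thus highest in KO, and 3.12-fold lower in DKO, where Mcpt8 was nearly as high as in KO. Gzmb, for granzyme B, was at 0.233, 1.28 and 1.14. The mast cell protease genes Mcpt1, Mcpt2 and Cma1 had 17, 99 and 34 UMIs in KO and 0 in WT and DKO, which by the limit of 3 counts allows up to 0.0350 and 0.0273 CPM there. These 3 transcripts were thus at or under 0.976 CPM in every library.

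The remaining genes of the lineage were counted at a mean of at least 5 CPM, where KO was above WT by 1.5-fold in 7.77% of all genes and below it in 17.1%. DKO was above KO in 17.9% and below it in 6.32%, and above WT in 3.62% and below it in 3.55%. All lists were chosen with earlier results of these data known. Receptors for immunoglobulin E and cytokines had 3 of 12 measured members higher and 3 lower in KO than in WT (median log2 ratio -0.22, all genes -0.08). Against KO, DKO had 5 of 13 higher and 4 lower, and against WT 2 of 10 higher and 1 lower. Fcer1a was at 0.700, 9.63 and 6.43 CPM, Ms4a2 at 1.06, 6.66 and 3.98, and Il1rl1, the interleukin-33 receptor, at 0.630, 8.62 and 1.75. Csf2rb, the common beta chain that serves interleukin-3, was at 18.4, 60.4 and 18.2, and Kit, the receptor of stem cell factor and an antigen of the sort, at 94.8, 41.5 and 65.9. Other members were highest in DKO, like Cpa3: Fcer1g was at 96.4, 112 and 120, Il3ra, the interleukin-3 receptor alpha chain, at 23.3, 20.2 and 31.4, and Crlf2 at 111, 76.9 and 170. The list thus held members highest in KO and members highest in DKO.

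Signalling genes downstream of the immunoglobulin E receptor had 6 of 11 measured members lower and 0 higher in KO than in WT (median -0.63), 5 higher and 0 lower in DKO against KO (0.53), and 0 either way in DKO against WT (0.01, all genes 0.06). The adaptor genes Lat and Lcp2 were at 43.4, 25.5 and 53.2 and at 20.8, 13.4 and 25.7 CPM. With 3.62% of all genes higher and 3.55% lower in DKO than in WT, 0 of 11 members is near the share of all genes. No result about the list is read from it.

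Genes for histamine and lipid mediators had 2 of 7 higher and 1 lower in KO than in WT. For DKO, 4 were higher and 2 lower against KO, and 2 higher and 0 lower against WT. Hdc was at 2.50, 11.8 and 7.66 CPM, and the leukotriene enzyme gene Alox5 at 0.222, 10.4 and 0.882. Slc18a2, which loads histamine into granules, was at 14.3, 8.60 and 19.9, and Ltc4s, the leukotriene C4 synthase gene, at 19.6, 13.6 and 27.8. Of the granule protease genes besides Cpa3 and Mcpt8, 7 of 13 were in the table, and Ctsg and Prss57 were the 2 measured in KO against WT, both higher there and both lower in DKO than in KO. The granule matrix list, with serglycin and lysosomal genes, had 0 of 12 past the fold in KO against WT, and 2 higher and 1 lower in DKO against WT. Of the other metallocarboxypeptidase genes 8 of 15 were in the table and 3 were measured, of which 0 were past 1.5-fold in DKO against WT (median 0.15). Cpq was highest of these, at 25.3, 11.6 and 36.8. Cytokine genes had 0 of 4 higher and 2 lower in KO than in WT, 5 of 5 higher in DKO than in KO, and 2 of 5 higher and 2 lower in DKO than in WT. Of these, Ccl9, a chemokine gene that was also among those most like Mcpt8, was at 118, 163 and 245 CPM.

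Transcription factors of the lineage had 4 of 21 higher and 4 lower in KO than in WT. For DKO, 4 of 20 were higher and 3 lower against KO, and 3 of 20 higher and 2 lower against WT. Gata2 was at 54.2, 41.0 and 91.8 CPM, lower in KO than in WT and highest in DKO, by 1.70-fold over WT (1.64 to 1.76). Other factors had the same order of libraries, among them Meis1 at 126, 51.7 and 141, Ikzf2 at 76.5, 38.3 and 88.1 and Lmo2 at 607, 431 and 677. Gata1 was at 6.20, 27.8 and 15.1, Cebpa at 29.4, 61.4 and 42.4 and Irf8 at 100.5, 73.0 and 49.3. Cebpa, like Mcpt8, was lowest in WT and higher in KO than in DKO, and Gata2, like Cpa3, was highest in DKO, which is an ordering of 3 libraries and no test. The whole basophil and mast cell marker list without Cpa3 and Mcpt8 (15 of 19 in the table, 1 at 0 in a library) summed to 106, 117 and 178 CPM.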

How the data were processed

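The 3 libraries were Chromium 3' v2 libraries of LSK cells, and Seurat, Cell Ranger, bcl2fastq and mm10 are listed, per the submitters' processing notes, without versions or roles. The deposited counts are UMIs for 14721 genes in 21251 cells. Deposited beside them are natural log values, ln(1 + 10000 × count / total of the cell), a form that was checked within 0.001 at all 69176581 nonzero entries. All values were computed from the counts. Gene positions came from GENCODE vM21, in which 14216 symbols matched 1 gene, and promoters from RefSeq.

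Counts were summed per library or class and divided by the total (CPM). Levels carry exact Poisson intervals, ratios exact conditional binomial intervals and shares Clopper-Pearson intervals, all at 95% and for counting error only. No test was made, because each genotype is 1 library. The members and lists were chosen with earlier results of these data known. Genes named are Cpa3, Mcpt8, the 10 most correlated with each at a mean of at least 5 CPM, the 10 highest and 10 lowest ratios between cells with both genes and with neither (at least 50 CPM in the higher set; 1 of these genes is not reported here), group members, Spop and Myd88. Rankings left out sex-linked, globin, mitochondrial, ribosomal and predicted genes. Csrp3 and other leading genes of clusters, Flt3, Xist and Ddx3y were named after their values were seen.

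Cells were clustered with scanpy 1.11.5 and leidenalg 0.10.2 (2000 variable genes leaving out Cpa3, Mcpt8 and genes of the cell cycle, ribosome, mitochondria and sex chromosomes, 30 components, 20 neighbours, resolution 1). A cluster took a list's name when at least 3 markers of 1 of 13 lists ranked in its top 15 genes, at least 2 more than of any other list, without counting Cpa3, Mcpt8 or the interferon-responsive Ly6a, Ifitm1 and Ifitm3, a rule set after the clusters had been seen. The pair of megakaryocyte-progenitor-like clusters was pooled. Scrublet called 0.0245%, 0.285% and 0.0611% of cells, fewer than can be relied on, and no cell was removed. TMM scaling used edgeR 4.0.16. The calculations were tested on simulated data. Alternatives covered scaling, cell weight, depth, doublets, classes left out, clustering, detection and level thresholds. Leaving out the cluster led by Prss34 and Csrp3, leaving out the richest cell of each library, and splitting that cluster were chosen after seeing the data.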

Additional observations from a re-analysis of the deposited data

Results flagged for a closer look

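The KO/WT difference of Cpa3 went in opposite directions in the classes that allow this comparison. In the cluster led by Cmah and Arpp21, Cpa3 was at 3.04 CPM in WT and 8.10 in KO, a ratio of 2.66 (1.05 to 5.94) that rests on 30 and 8 UMIs. In megakaryocyte-progenitor-like cells it was at 25.5 and 16.3 CPM, a ratio of 0.639 (0.495 to 0.822) from 152 and 109 UMIs. With all basophil and mast cell markers kept out of the clustering, this class was at 34.2 CPM in WT and 62.6 in KO, so that KO was then above WT in it too. The difference between the classes was not tested, and each class has 1 library per genotype.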

How the results depend on the processing

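No paired analysis was possible because each genotype is 1 library. Depth limits the classes with few UMIs, and single cells limit Prss34 and part of Mcpt8. The causes of the changes below were not tested. Log2 ratios of Cpa3 for KO/WT, DKO/KO and DKO/WT were 0.43, 1.81 and 2.24, and those of Mcpt8 1.53, -0.10 and 1.44. With TMM they were 0.58 and 1.61 for Cpa3 (KO/WT, DKO/KO) and 1.68 and -0.29 for Mcpt8, and with median-of-ratios scaling 0.60, 1.61, 1.70 and -0.30. With equal weight for each cell, Cpa3 was at 0.88 and 1.40 (KO/WT, DKO/KO) and Mcpt8 at 1.36 (KO/WT) and 1.30 (DKO/WT), and with each cell thinned to 5500 UMIs they were at 0.82, 1.40, 1.28 and 1.22. With the classes of erythroid, neutrophil and B lineage left out, Cpa3 was at 0.98, 1.13 and 2.11, and Mcpt8 at 0.94, 0.34 and 1.28, which reverses its DKO/KO ratio. Without the 1% of cells richest in the gene, Cpa3 was at 0.54, 2.16 and 2.70 and Mcpt8 at 1.62 (KO/WT) and -0.17 (DKO/KO). Without the cluster led by Prss34 and Csrp3, Cpa3 was at 0.092 and 2.14 and Mcpt8 at 1.70 and -0.22 (KO/WT, DKO/KO). Without the richest cell Mcpt8 was at 1.67 and -0.18, and without the likely doublets its DKO/KO ratio was -0.032. All other signs were kept in these settings.

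The share of cells with both genes in WT, KO and DKO was 0.0268%, 0.183% and 0.400% at 2 UMIs of each, 0.0134%, 0.122% and 0.0999% at 3, 0.271%, 0.711% and 1.56% at 4000 UMIs per cell, 0.849% (WT) and 3.87% (DKO) at 8000, and 1.26%, 4.04% and 6.37% without thinning. In megakaryocyte-progenitor-like cells, leaving all basophil and mast cell markers out of the clustering gave Cpa3 at 34.2, 62.6 and 90.0 CPM and Mcpt8 at 31.2, 34.7 and 38.1 in WT, KO and DKO, and resolution 1.5 gave Cpa3 at 77.6 in DKO. With detection in place of log values, Slc7a8 and Srgn left the genes most like Cpa3, and Calr, Plac8 and Prtn3 those most like Mcpt8.

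Genes at least 1.5-fold higher and lower in KO against WT numbered 703 and 1550 at a mean of 5 CPM, 297 and 242 at 50, 1576 and 4345 with no such minimum, 892 and 414 with TMM and 949 and 390 with median-of-ratios scaling. In DKO against KO they numbered 1610 and 567, 275 and 193, 4406 and 1341, 372 and 676, and 369 and 695 in the same settings. In DKO against WT they numbered 333 and 327 at 5 CPM, 62 and 45 at 50, and 1481 and 1502 with no minimum.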
